A study of Homo sapiens with 12 samples.

Results

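The pentose phosphate pathway enzymes examined here were the 6 genes PGD, TKT, TALDO1, TKTL1, RPIA and RPE, chosen by gene symbol out of 25369 genes in the count table. Their mRNA was measured by poly(A)+ RNA-seq in 3 established human cancer cell lines, RKO from a colon carcinoma, A549 from a lung adenocarcinoma and H460 from a large cell lung carcinoma. Cells of each line were kept for 24 h either in normoxia or under hypoxia, at 1% O2. This gave 6 groups of 2 replicate libraries, and no engineered genetic change is described for any group. Mutations that the lines themselves carry were not examined. RKO and A549 cells grew in DMEM and H460 cells in RPMI, both with fetal bovine serum, so that a difference between H460 and the other lines cannot be told apart from a difference in medium. The study describes its replicates as independent biological duplicates, but nothing ties a library to a particular culture or day. The p values measure the spread between these libraries, which may be partly technical.

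The pentose phosphate pathway branches from glycolysis at glucose 6-phosphate. Its oxidative arm yields NADPH and ribulose 5-phosphate, and 6-phosphogluconate dehydrogenase (PGD) carries out the decarboxylating step of that arm. Its non-oxidative arm is reversible and links pentose phosphates, the source of the ribose in nucleotides, with the glycolytic intermediates fructose 6-phosphate and glyceraldehyde 3-phosphate. Ribose 5-phosphate isomerase (RPIA) and ribulose 5-phosphate 3-epimerase (RPE) share ribulose 5-phosphate as a substrate. Transketolase (TKT) and transaldolase (TALDO1) exchange carbon units between sugar phosphates, and TKTL1 encodes a transketolase-like protein. TKT, TALDO1 and PGD are known among the targets of the transcription factor NRF2, and many genes of glycolysis are induced by the hypoxia-inducible factor HIF1A.

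On GRCh37, the build of the files, PGD lies at chr1:10459084-10480201 on the plus strand, RPIA at chr2:88991175-89050452 (plus), RPE at chr2:210867288-210886984 (plus), TKT at chr3:53258722-53290130 (minus), TALDO1 at chr11:747431-765024 (plus) and TKTL1 at chrX:153524026-153558713 (plus). The annotated span of RPE overlaps KANSL1L on the opposite strand. The microRNA genes MIR4435-1, MIR4435-2, MIR4444-1 and MIR4444-2 are also listed over RPIA. The listed spans of MIR4444-1 and MIR4444-2 cover SFTPB and PDK1 as well, which lie far apart on the same chromosome. Listed spans of such multi-copy genes therefore do not show an overlap with RPIA. GENCODE names 1 processed pseudogene of PGD, 1 of RPIA and 6 of RPE, and 0 of these are in the count table. Reads that such copies share with their parent genes make the levels of these 3 genes uncertain by an amount that was not tested.

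The promoters of the 4 genes that were called in at least 1 comparison below are shown because 2 of them, TALDO1 and RPIA, were called lower in hypoxia in the same lines, RKO and H460, in which PGD was not called and TKT was called only in H460, higher. The sequences are the 250 bases before the RefSeq start of each gene on GRCh38.p14, read along the gene's strand. Capitals mark matches on either strand to ACGTG or GCGTG, forms of the hypoxia response element core, or to TGACNNNGC, the antioxidant response element core. A minus-strand match appears as its reverse complement. The E-box CACGTG, which contains ACGTG, was searched as well and gave no match in the 6 genes. The windows are chr1:10398814-10399063 (plus) for PGD, chr2:88691423-88691672 (plus) for RPIA, chr3:53256023-53256272 (minus) for TKT and chr11:747214-747463 (plus) for TALDO1.
PGD: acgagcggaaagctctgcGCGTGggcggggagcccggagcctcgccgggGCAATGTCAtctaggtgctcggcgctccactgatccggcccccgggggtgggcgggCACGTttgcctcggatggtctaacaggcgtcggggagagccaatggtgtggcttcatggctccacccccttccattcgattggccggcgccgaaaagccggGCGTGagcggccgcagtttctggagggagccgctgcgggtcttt
RPIA: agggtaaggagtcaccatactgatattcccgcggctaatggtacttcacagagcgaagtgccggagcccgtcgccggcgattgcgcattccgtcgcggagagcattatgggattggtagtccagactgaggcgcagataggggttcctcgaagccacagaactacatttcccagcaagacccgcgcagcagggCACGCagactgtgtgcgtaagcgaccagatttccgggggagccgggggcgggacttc
TKT: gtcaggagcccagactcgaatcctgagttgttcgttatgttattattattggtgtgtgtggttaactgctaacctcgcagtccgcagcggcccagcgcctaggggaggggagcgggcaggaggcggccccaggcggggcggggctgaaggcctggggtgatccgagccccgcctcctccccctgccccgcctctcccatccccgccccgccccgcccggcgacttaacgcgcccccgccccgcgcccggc
TALDO1: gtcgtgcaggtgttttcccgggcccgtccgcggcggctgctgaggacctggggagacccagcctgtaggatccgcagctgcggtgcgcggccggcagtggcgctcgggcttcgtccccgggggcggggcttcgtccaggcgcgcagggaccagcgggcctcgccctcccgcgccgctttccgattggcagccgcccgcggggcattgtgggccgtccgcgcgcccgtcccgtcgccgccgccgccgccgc

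In the PGD window, ACGTG matched once on the minus strand (145 to 141 bases before the start), GCGTG matched at 2 places on the plus strand (232 to 228 and 44 to 40 bases before the start), and TGACNNNGC matched once on the minus strand (201 to 193 bases before the start). The RPIA window held 1 GCGTG match on the minus strand, 57 to 53 bases before the start. The windows of TKT and TALDO1 held no match to any of the 4 motifs, nor did that of TKTL1, and the RPE window held 1 TGACNNNGC match on the plus strand. Among 35116 windows of the same length, 43.2% held ACGTG or GCGTG (18.5% and 32.2% each), 10.9% held TGACNNNGC and 6.34% held CACGTG. A match describes these letters only, and factor binding was not measured in these libraries.

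The libraries held between 27350424 and 41757584 counted reads. CA9, a carbonic anhydrase known as a marker of hypoxia, was higher in hypoxia in each line, by 4.45, 5.65 and 6.81 on the log2 scale in RKO, A549 and H460. The epithelial keratin KRT18 averaged 123, 776 and 344 RPKM (reads scaled to gene length and library size) in normoxia in RKO, A549 and H460. The other epithelial markers were uneven. In the same order KRT8 averaged 3.84, 752 and 342 RPKM, EPCAM 2.94, 10.0 and 0.291, and CDH1 0.0172, 14.9 and 0.104. Markers of intestine (CDX2, VIL1, LGALS4) and lung (NKX2-1, SFTPB, NAPSA) were mostly low in normoxia. Only CDX2 in RKO, at 6.94 RPKM, and NAPSA in A549, at 2.72 RPKM, averaged over 1 RPKM. VIL1, NKX2-1 and SFTPB were at or near 0 in the normoxia libraries of all lines. In hypoxia the lung marker NKX2-1 reached 1.15 and 1.125 RPKM in H460, against 0.0291 and 0 in H460 normoxia, and its part in the H460 results was not tested. PTPRC and PECAM1, markers of leukocytes and endothelium, did not exceed 0.0189 RPKM in any library. The fibroblast collagen COL1A1 was at 8.30 and 15.0 RPKM in A549 normoxia and at 21.9 and 69.7 in A549 hypoxia, and a part of this in the A549 results was not tested. Scaling by library size in place of TMM, which centres on the bulk of genes, shifted the median log2 fold change by 0.08 in RKO, by -0.09 in A549 and by -0.35 in H460, and changes are given relative to the TMM reference.

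The first question was how 24 h of hypoxia changed the pathway within each line. TALDO1 and RPIA fell in RKO and in H460, TKT rose in H460, and PGD and RPE passed the test in no line. In A549 no member passed. In these bulk libraries, fewer cells that make a transcript and less of it per cell cannot be told apart. A gene was called when its adjusted p (edgeR quasi-likelihood F test, Benjamini-Hochberg) was under 0.1 and its fold change over 1.5. Levels are given as CPM, read counts scaled to the size of the library. Of the 6 members, 5 exceeded 0.5 CPM in at least 2 of a line's libraries and were tested in all lines, while TKTL1 was tested in none. In RKO 2 of the 5 tested members were called, both lower, against 33.9% of all tested genes called in either direction and 15.1% called lower. In H460 3 of 5 were called, 1 higher and 2 lower, against 51.9% of all tested genes in either direction, 24.6% higher and 27.3% lower. With library size scaling 3 members were also called in H460, all lower, with PGD in place of TKT. In A549, 0 of 5 were called by edgeR, against 2.67% of all tested genes, and 0 had an unadjusted p under 0.05. DESeq2 and limma called 0 there as well. The count over all A549 genes depended on 1 library, with 381 genes called from all 4 libraries and 1835 without hypoxia replicate 1, a fit in which 0 members were called too. The shares of members called in RKO and H460 were not far from those of all genes, and the tested members had a median log2 fold change of -0.56, -0.14 and -0.25 in RKO, A549 and H460, against 0.01, -0.01 and -0.04 over all tested genes.

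**Figure D1:**
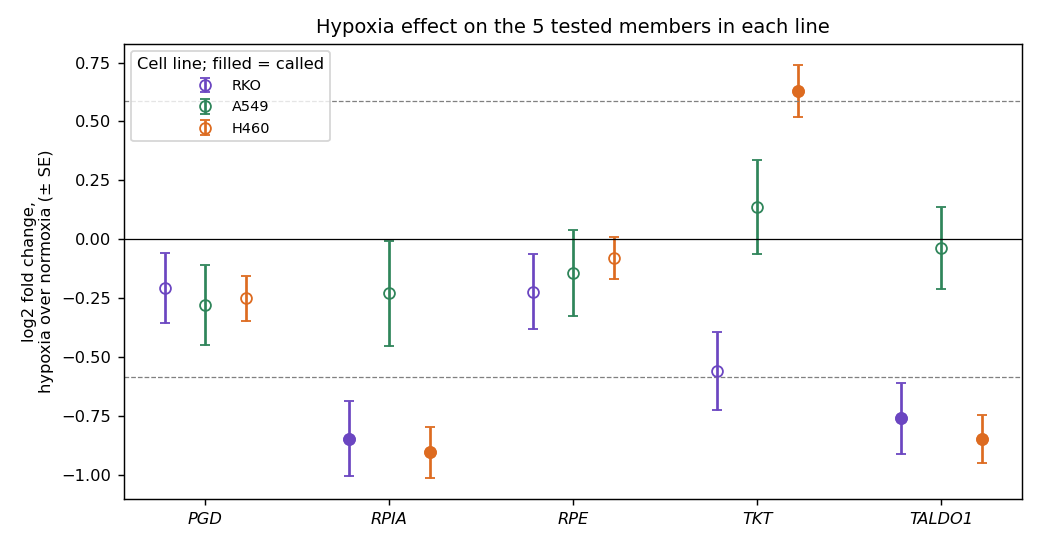
Log2 fold change in hypoxia over normoxia (y axis, edgeR estimate with bars of 1 standard error) of the 5 tested members (x axis) in RKO, A549 and H460; filled points were called and dashed lines mark a fold change of 1.5. The TALDO1 and RPIA points of RKO and H460 lie between -0.76 and -0.90, the TKT point of H460 lies at 0.63, and all A549 points lie between -0.28 and 0.14.

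PGD, the oxidative-arm member, was slightly lower in the hypoxia libraries of every line. In RKO its TMM-scaled CPM was 269 and 252 in normoxia and 230 and 221 in hypoxia. In A549 it was 649 and 663 in normoxia and 536 and 545 in hypoxia. In H460 it was 625 and 568 in normoxia and 518 and 485 in hypoxia. The normoxia and hypoxia libraries did not overlap in any line, with the hypoxia libraries below. With 2 libraries a group such a separation can often arise without a real change, and its share over all genes was not counted. The log2 fold changes were -0.21 ± 0.15 (SE; adjusted p = 0.294) in RKO, -0.28 ± 0.17 (0.448) in A549 and -0.25 ± 0.10 (0.0334) in H460. The H460 value passed the adjusted p but stayed under the fold change of 1.5. With library size scaling it was -0.60, and PGD was then called lower in H460.

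RPIA, which converts ribulose 5-phosphate to ribose 5-phosphate, fell in RKO and H460. In RKO its CPM was 62.9 and 57.3 in normoxia and 34.1 and 32.8 in hypoxia. In H460 it was 25.1 and 26.0 in normoxia and 13.2 and 14.0 in hypoxia. In both lines the groups were far apart compared with the distance between replicates. The log2 fold change was -0.85 ± 0.16 (adjusted p = 0.00231) in RKO and -0.90 ± 0.11 (adjusted p = 1.43e-05) in H460. In A549 the CPM was 18.6 and 17.6 in normoxia and 17.2 and 13.7 in hypoxia, so the hypoxia libraries lay below both normoxia libraries, 1 of them by less than the normoxia replicates differed. The A549 value, -0.23 ± 0.22, did not pass the test (adjusted p = 0.649).

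RPE, which uses the same substrate to make xylulose 5-phosphate, gave no call. Its CPM in RKO was 92.2 and 77.7 in normoxia and 77.3 and 68.3 in hypoxia. In A549 it was 57.7 and 65.0 in normoxia and 59.7 and 51.3 in hypoxia. In H460 it was 74.7 and 82.6 in normoxia and 74.6 and 74.4 in hypoxia. The conditions overlapped in A549, and in RKO and H460 the lowest normoxia library lay beside the highest hypoxia library. The log2 fold changes were -0.22 ± 0.16, -0.14 ± 0.18 and -0.08 ± 0.09 in RKO, A549 and H460, with adjusted p of 0.295, 0.735 and 0.44.

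TKT was the only member called higher in hypoxia within a line. In H460 its CPM was 1563.5 and 1336.7 in normoxia and 2324.5 and 2164.9 in hypoxia. In RKO it was 444 and 422 in normoxia and 327 and 260.0 in hypoxia. In A549 it was 1505 and 1356 in normoxia and 1334 and 1809 in hypoxia. The hypoxia libraries lay above normoxia in H460 and below it in RKO, and in A549 they lay on either side of both normoxia libraries. The H460 rise was 0.63 ± 0.11 on the log2 scale, a 1.55-fold change just past the threshold (adjusted p = 0.00029). It was 0.28 with library size scaling and 0.48 without normoxia replicate 2, under the fold threshold in both cases, and upward under each alternative tried. In RKO the change was -0.56 ± 0.17 (adjusted p = 0.022), short of the fold threshold, which it passed without normoxia replicate 2 (-0.60) or without hypoxia replicate 1 (-0.70). The A549 value was 0.14 ± 0.20 (adjusted p = 0.779), and it was -0.10 without hypoxia replicate 2.

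TALDO1, which acts beside TKT in the non-oxidative arm, fell in the same lines as RPIA. In RKO its CPM was 194 and 171 in normoxia and 108 and 107 in hypoxia. In H460 it was 263 and 229 in normoxia and 146 and 127 in hypoxia. The groups did not overlap in either line. The log2 fold change was -0.76 ± 0.15 (adjusted p = 0.00302) in RKO and -0.85 ± 0.10 (adjusted p = 1.49e-05) in H460. In A549 the libraries interleaved, with a CPM of 251 and 226 in normoxia and 247 and 218 in hypoxia, and the difference was -0.04 ± 0.18 (adjusted p = 0.934). The TALDO1 and RPIA calls in RKO and H460 were kept under every alternative except a fold threshold of 2.

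TKTL1 was close to undetected. It had 0 reads in all 6 normoxia libraries and in both H460 hypoxia libraries, 1 and 0 reads in the A549 hypoxia libraries, and 26 and 3 reads in the RKO hypoxia libraries. A count of 0 allows up to 3 reads, or 0.0718 to 0.110 CPM by library size, which covers counting error only. The 2 RKO hypoxia libraries differed by more than their mean, 0.667 and 0.0845 CPM, and the higher level is set by 1 library. Without the filter on low counts TKTL1 was called higher in RKO (edgeR adjusted p = 0.00222), and no fold is given against libraries at 0. TKTL2 and RPEL1, the paralogs of TKT and RPE, were also near 0, at no more than 0.022 and 0.129 RPKM in any library.

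**Figure D2:**
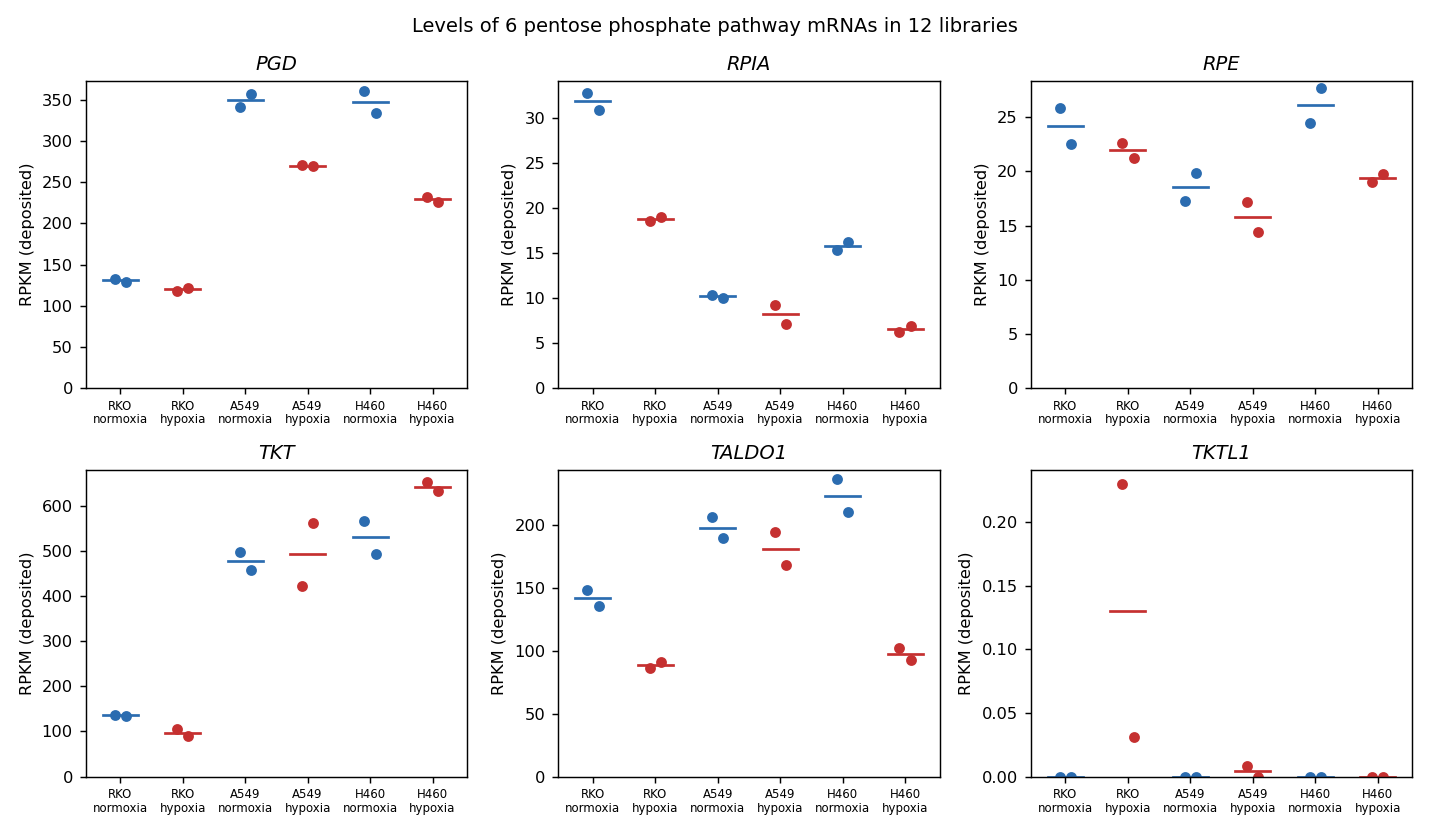
RPKM as deposited (y axis, linear, own scale per gene) of the 6 members in each of the 12 libraries, by line and oxygen condition (x axis); points are libraries and horizontal lines the mean of 2. RPIA and TALDO1 show separate normoxia and hypoxia points in RKO and H460, TKT is lowest in RKO in both conditions, and TKTL1 reaches only 0.230 RPKM.

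The next question was how the members stood relative to each other within a library. Levels of different genes were compared per length, as RPKM, and ratios within a library do not depend on how libraries are scaled. The ratio of TKT to TALDO1 in H460 was 2.39 and 2.35 in normoxia and 6.39 and 6.84 in hypoxia. In RKO it was 0.922 and 0.993 in normoxia and 1.22 and 0.977 in hypoxia. In A549 it was 2.41 and 2.41 in normoxia and 2.17 and 3.34 in hypoxia. In H460 both hypoxia values lay above both normoxia values, and in RKO and A549 the conditions overlapped. With 2 libraries a group these ratios were not tested.

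The ratio of RPE to RPIA, the pair that divide ribulose 5-phosphate between them, was higher in hypoxia in RKO and H460. It was 0.789 and 0.730 in normoxia and 1.22 and 1.12 in hypoxia in RKO. It was 1.60 and 1.71 in normoxia and 3.03 and 2.85 in hypoxia in H460. In A549, at 1.67 and 1.99 in normoxia and 1.87 and 2.02 in hypoxia, the conditions overlapped. RPIA therefore exceeded RPE only in the 2 RKO normoxia libraries.

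As a share of the summed RPKM of the 6 members, TKT took 47.0% and 45.6% in H460 normoxia and 64.5% and 64.7% in H460 hypoxia. The TALDO1 share in H460 was 19.7% and 19.4% in normoxia and 10.1% and 9.45% in hypoxia, and the PGD share was 30.0% and 30.9% in normoxia and 22.9% and 23.1% in hypoxia. TKT thus stood for most of the members' mRNA in hypoxic H460, whereas in normoxic RKO the 3 abundant members were nearly even. In RKO normoxia TALDO1 had 31.2% and 30.0%, TKT 28.8% and 29.8% and PGD 27.8% and 28.4%. In RKO hypoxia PGD led with 33.6% and 35.4%. The summed RPKM was 478 and 453 in normoxia and 352 and 342 in hypoxia in RKO, 1074 and 1035 against 916 and 1020 in A549, and 1203 and 1083 against 1011 and 979 in H460. Unlike the shares, these sums depend on how libraries are scaled, and RPKM carries no TMM scaling. In H460 that choice shifts the median log2 fold change by -0.35. The sums therefore do not settle whether the members' mRNA as a whole changed with oxygen, which was not tested.

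**Figure D3:**
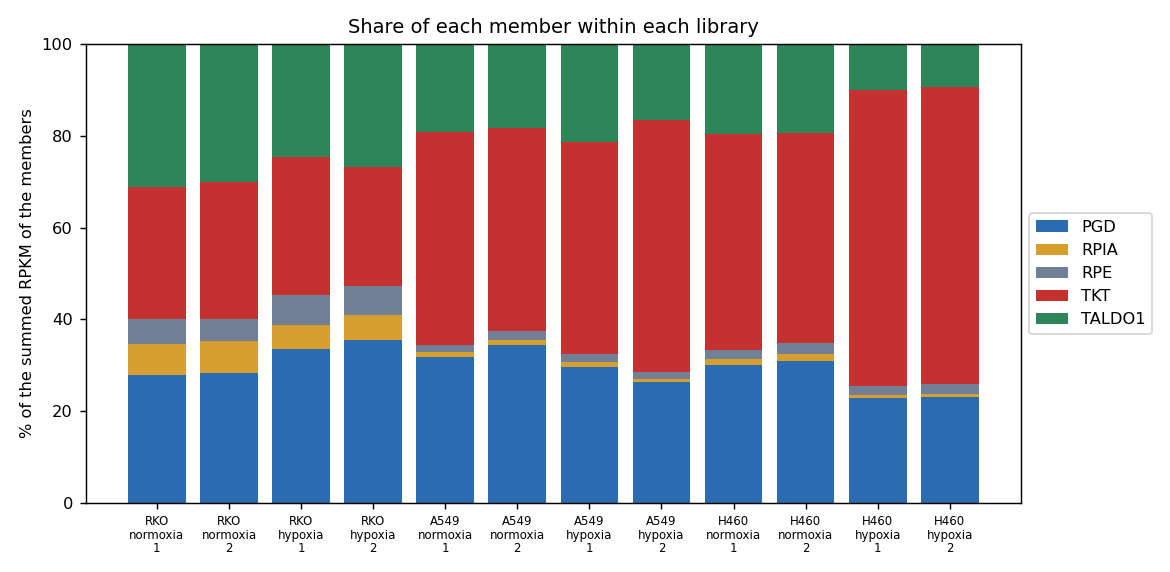
Percent of the summed RPKM of the members (y axis, stacked to 100) held by each member in each of the 12 libraries (x axis); TKTL1, at most 0.0652%, is too small to draw. The TKT segment grows and the TALDO1 segment shrinks in the 2 H460 hypoxia libraries, and the RPIA and RPE segments are widest in RKO.

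Whether the hypoxia effect differed between lines was tested by the interaction of line and oxygen in a joint fit of all 12 libraries, called on the adjusted p alone. The effect differed over the 3 lines for TKT (adjusted p = 0.00905), TALDO1 (0.0107) and RPIA (0.043), and passed the test for neither PGD (0.853) nor RPE (0.918), which does not show that their effects are alike. That is 3 of 5 members, against 48.8% of all tested genes. For the pair RKO and A549, 1 of 5 members was called, against 14.6% of genes. It was TALDO1, with an effect lower in RKO by a log2 difference of -0.68 ± 0.20 (adjusted p = 0.0504). The call is close to the threshold, and it was lost without RKO normoxia replicate 1, RKO hypoxia replicate 1, A549 normoxia replicate 2 or A549 hypoxia replicate 1 (adjusted p of 0.101 to 0.165) and with limma on RPKM (0.107). For TKT and RPIA the differences between RKO and A549 were -0.65 ± 0.25 (0.126) and -0.57 ± 0.21 (0.113). Both passed under DESeq2 and with the replicate number as a block (adjusted p of 0.0431 for TKT and 0.0524 for RPIA).

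Between RKO and H460, 1 of 5 members was called, against 37.6% of genes. The TKT effect was lower in RKO by a log2 difference of -1.14 ± 0.25 (adjusted p = 0.00421), and it passed under each alternative. The TALDO1 and RPIA effects of RKO and H460 differed by 0.13 ± 0.20 and 0.10 ± 0.21, which did not pass, but with library size scaling these differences were 0.52 and 0.49 and passed, as did that of PGD, at 0.48 (adjusted p = 0.0335) in place of 0.09 ± 0.18. Between A549 and H460, 2 of 5 members were called, against 36.0% of genes. The TALDO1 difference was 0.81 ± 0.20 (adjusted p = 0.00829) and the RPIA difference 0.67 ± 0.22 (adjusted p = 0.0326), with the H460 effect further below 0 in both cases. With the replicate block the TKT difference of -0.49 ± 0.25 (adjusted p = 0.162) was -0.51 and passed (adjusted p = 0.0589). The RPIA call was lost without A549 hypoxia replicate 1, H460 normoxia replicate 2 or H460 hypoxia replicate 1. The 3 pairwise comparisons share libraries and are not independent of each other.

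Averaged over the lines, only RPIA was called, lower by a log2 fold change of -0.63 ± 0.09 (adjusted p = 4.57e-05), against 26.4% of all tested genes called in either direction and 11.5% called lower. Without A549 hypoxia replicate 2 its value was -0.58 and fell short of the fold threshold. TALDO1 at -0.52 ± 0.08 (adjusted p = 0.00011) and PGD at -0.21 ± 0.07 (adjusted p = 0.0261) passed the adjusted p and not the fold threshold. TKT, at 0.10 ± 0.10 (adjusted p = 0.456), had effects of opposite sign in RKO and H460, and its average turned to -0.05 with library size scaling. RPE averaged -0.12 ± 0.08 (adjusted p = 0.261).

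The level of each member in normoxia was compared between lines in the same joint fit. PGD and TKT were higher in both lung lines than in RKO, and RPIA was highest in RKO. The PGD level was 133 and 129 RPKM in RKO, against 342 and 357 for A549 and 361 and 335 for H460. The TKT level was 137 and 135 RPKM in RKO, against 497 and 458 for A549 and 566 and 494 for H460. RKO lay well below the lung lines for both genes, and A549 and H460 overlapped for both. PGD was 2.69-fold higher in A549 than in RKO (log2 1.43 ± 0.13, adjusted p = 2.33e-07) and 2.72-fold higher in H460 (1.44 ± 0.13, 2.02e-07). TKT was 3.53-fold higher in A549 than in RKO (log2 1.82 ± 0.18, adjusted p = 6.67e-07) and 3.98-fold higher in H460 (1.99 ± 0.19, 2.56e-07). Between H460 and A549 neither passed the test, with log2 differences of 0.01 ± 0.13 for PGD and 0.17 ± 0.18 for TKT.

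The RPIA level ran the other way, with 32.8 and 30.9 RPKM for RKO, 15.3 and 16.2 for H460 and 10.4 and 10.0 for A549. The 3 lines did not overlap, and each pair passed the test. RPIA differed from RKO by -1.64 ± 0.15 on the log2 scale in A549 (adjusted p = 2.99e-07) and by -0.99 ± 0.15 in H460 (adjusted p = 4.22e-05), and H460 was above A549 by 0.65 ± 0.15 (adjusted p = 0.00206). For TALDO1 RKO had 149 and 136 RPKM, A549 207 and 190, and H460 237 and 210, with both lung lines above RKO and H460 just above A549. The difference from RKO was 0.68 ± 0.14 in H460, which was called (adjusted p = 0.000556), and 0.49 ± 0.14 in A549, short of the fold threshold (adjusted p = 0.00638). The H460 call was lost without H460 normoxia replicate 1, at 0.58, and H460 and A549 differed by 0.19 ± 0.14 (adjusted p = 0.245). For RPE RKO had 25.8 and 22.6 RPKM, A549 17.3 and 19.9, and H460 24.5 and 27.7. A549 lay below the others, which overlapped. RPE was not called for any pair of lines, and its H460 to A549 difference of 0.51 ± 0.14 (adjusted p = 0.00721) passed the fold threshold without A549 normoxia replicate 2 (0.60) or H460 normoxia replicate 1 (0.59).

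By line pair, 3 of 5 tested members were called between A549 and RKO (2 higher in A549, 1 lower), against 60.2% of all tested genes (34.1% higher and 26.0% lower). Between H460 and RKO 4 of 5 were called (3 higher in H460, 1 lower), against 61.9% (34.7% and 27.2%), and between H460 and A549 1 of 5 was called, higher in H460, against 52.1% (25.2% higher). The share of members called was close to that of all genes between A549 and RKO, above it between H460 and RKO and below it between H460 and A549, and with 5 genes these differences of shares were not tested. The normoxia libraries enter both these comparisons and the hypoxia effects.

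**Figure D4:**
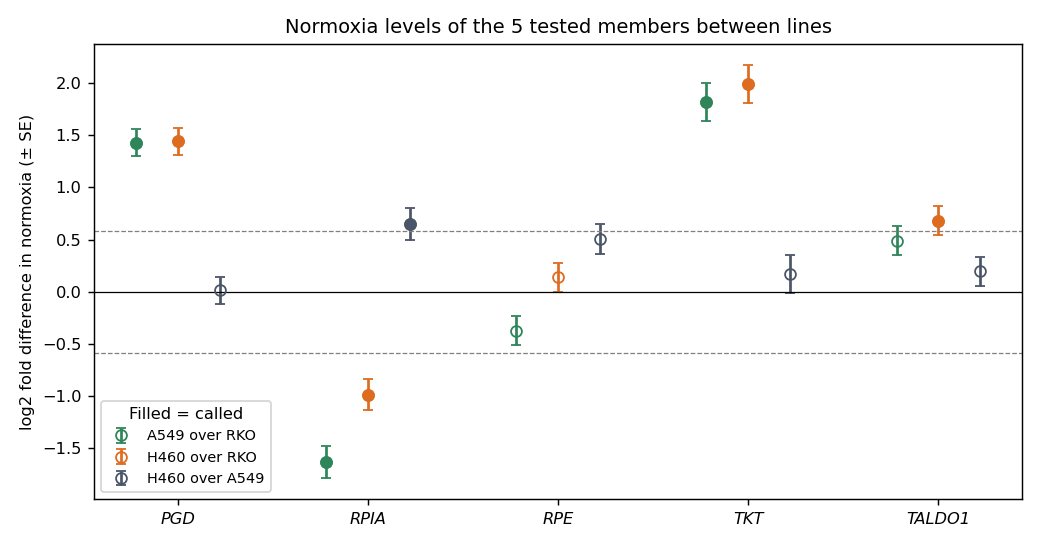
Log2 difference in normoxia level between lines (y axis, edgeR estimate with bars of 1 standard error) of the 5 tested members (x axis) for A549 over RKO, H460 over RKO and H460 over A549; filled points were called and dashed lines mark a fold of 1.5. The PGD and TKT points against RKO lie between 1.43 and 1.99, and the RPIA points against RKO at -1.64 and -0.99.

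Ordered by mean RPKM in normoxia, the members of RKO ran from TALDO1 at 142 ± 9.11 (SD, n = 2) through TKT at 136 ± 1.62 and PGD at 131 ± 3.04 to RPIA at 31.8 ± 1.31 and RPE at 24.2 ± 2.32. The first 2 neighbours were apart by less than their spread. In A549 the order was TKT at 478 ± 28, PGD at 350 ± 10.6, TALDO1 at 198 ± 11.8, RPE at 18.6 ± 1.84 and RPIA at 10.2 ± 0.243, and all neighbours were apart by more than their spread. H460 had the A549 order, with TKT at 530 ± 50.7, PGD at 348 ± 18.5, TALDO1 at 224 ± 18.5, RPE at 26.1 ± 2.25 and RPIA at 15.8 ± 0.599. In every A549 and H460 library, normoxic or hypoxic, this order was the same.

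Genes around the members were read from a list of 11, of which 9 were tested in each line. The list held genes of the pathway's entry, exit and side steps, and the paralogs TKTL2 and RPEL1. In RKO 2 were called higher and 1 lower, in A549 0, and in H460 1 higher and 4 lower, with medians of 0.22, 0.11 and -0.28. The 3 of 9 in RKO and 5 of 9 in H460 are close to the 33.9% and 51.9% of all tested genes called in those lines. PRPS1, which makes phosphoribosyl pyrophosphate from the ribose 5-phosphate that RPIA supplies, was among the lower genes. Its level in H460 was 42.5 and 40.5 RPKM in normoxia and 8.07 and 8.48 in hypoxia. It fell by 1.97 ± 0.09 on the log2 scale in H460 (adjusted p = 8.47e-09) and fell by 0.72 ± 0.15 in RKO (adjusted p = 0.00435), and its A549 value was -0.09 ± 0.20. C12orf5, also known as TIGAR, a fructose bisphosphatase that directs glucose 6-phosphate to the pathway, fell by 1.45 ± 0.13 in H460 (adjusted p = 1.41e-06), and its RKO value was in the other direction, 0.42 ± 0.16 (adjusted p = 0.0574), short of the fold threshold. DERA, the deoxyribose phosphate aldolase, fell by 0.92 ± 0.11 in H460. RBKS, which phosphorylates ribose, was higher in H460 by 1.07 ± 0.26 (adjusted p = 0.00301) and in RKO by 0.95 ± 0.38 (adjusted p = 0.0688), at levels of 0.465 to 1.27 RPKM in these lines. H6PD, the pathway's first enzyme in the endoplasmic reticulum, was higher in RKO by 0.63 ± 0.19 (adjusted p = 0.0218). In RKO the count of 3 was 1 without hypoxia replicate 1.

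PGD is 1 source of NADPH, and 11 genes of other NADPH sources and of the reductases that use it were read beside it. TXNRD1 is also in the NRF2 list below. In H460 0 of 10 tested were higher and 5 lower, with a median of -0.61, against 24.6% higher and 27.3% lower among all tested genes. The share called in either direction was close to the 51.9% of all tested genes, and the difference in direction was not tested. With library size scaling 8 were called. MTHFD1, of the folate cycle, fell by 1.79 ± 0.09 in H460 (adjusted p = 1.33e-08) and fell by 0.93 ± 0.15 in RKO (adjusted p = 0.00106). In H460 TXNRD1 (thioredoxin reductase) fell by 1.15 ± 0.10, GSR (glutathione reductase) fell by 1.14 ± 0.09 and IDH1 (the cytosolic NADP-dependent isocitrate dehydrogenase) fell by 0.96 ± 0.09. The mitochondrial IDH2 rose by 1.68 ± 0.18 in RKO (adjusted p = 0.000168) and by 1.24 ± 0.21 in A549 (adjusted p = 0.0251). These were the only called increases of the list, with 1 higher and 1 lower of 7 in RKO and 1 higher and 0 lower of 11 in A549. Of all tested genes, 33.9% were called in either direction in RKO and 2.67% in A549. The A549 count was 4 without hypoxia replicate 1 and 2 without hypoxia replicate 2 or normoxia replicate 1.

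Of 9 glycolytic genes, most of which handle sugar phosphates that the pathway also uses, RKO had 5 called higher, A549 6 and H460 8. The number called lower was 0 in each line, and the medians were 0.71, 0.79 and 1.34. Of all tested genes, 33.9%, 2.67% and 51.9% were called in either direction in RKO, A549 and H460. In H460 24.6% were called higher. HK2, GPI, PFKL and ALDOA were called in all 3 lines. HK2, the hexokinase that makes glucose 6-phosphate, rose by 2.45 ± 0.24, 2.52 ± 0.29 and 2.76 ± 0.10 on the log2 scale in RKO, A549 and H460. GPI, which takes glucose 6-phosphate on into glycolysis, rose by 0.78 ± 0.19, 0.83 ± 0.19 and 1.34 ± 0.10 in the same order. PFKL rose by 0.82 ± 0.15, 1.12 ± 0.18 and 1.68 ± 0.09, and ALDOA by 1.37 ± 0.21, 0.95 ± 0.19 and 1.12 ± 0.11. In H460 GAPDH rose by 2.12 ± 0.13 and TPI1 by 1.51 ± 0.10. GAPDH has many processed copies, so its value is uncertain. The A549 count was 3 with library size scaling, 0 to 1 with limma on RPKM and 2 without normoxia replicate 2, so that HK2, GPI, PFKL and ALDOA were not all called in every line under these settings.

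NRF2 is known to act on TKT, TALDO1 and PGD, and 8 other genes known as its targets were read beside them. In normoxia all 8 were higher in A549 than in RKO, and 7 of 8 were called higher in H460 than in RKO. Of all tested genes, 34.1% and 34.7% were called higher in these comparisons. The median log2 differences of the list were 2.90 and 3.44. AKR1B10 averaged 0.790 RPKM in RKO, 641 in A549 and 481 in H460, and NQO1 averaged 31.9, 477 and 621. In hypoxia 0 of the 8 were called higher, and RKO had 1 called lower, A549 3 and H460 7, with medians of -0.27, -0.70 and -1.28. Of all tested genes, 15.1% were called lower in RKO and 27.3% in H460. In A549 2.67% were called in either direction, and 65 of 14251 were called lower. The RKO count is near the share of all genes. AKR1B10 fell by 2.68 ± 0.11 in H460 and fell by 1.01 ± 0.25 in A549. SRXN1 fell by 1.97 ± 0.09 in H460 and fell by 0.96 ± 0.18 in A549. GCLM and GCLC encode the subunits of the enzyme that starts glutathione synthesis. In H460 GCLM fell by 1.98 ± 0.09 and GCLC fell by 1.28 ± 0.10, GCLC fell by 0.68 ± 0.17 in RKO, and ABCC2 fell by 0.89 ± 0.20 in A549. NQO1 passed the test in no line, at -0.06 ± 0.15, -0.19 ± 0.18 and 0.01 ± 0.10. Among the members known as NRF2 targets, the H460 values given above were -0.85 for TALDO1, -0.25 for PGD (not called) and 0.63 for TKT (0.28 and not called with library size scaling). The A549 count of 3 was 7 without hypoxia replicate 1, 0 without hypoxia replicate 2 and 1 without normoxia replicate 1, and the RKO count of 1 was 0 without hypoxia replicate 1 and 2 without hypoxia replicate 2 or normoxia replicate 2. A part of NRF2 in the members' levels was not tested.

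**Figure D5:**
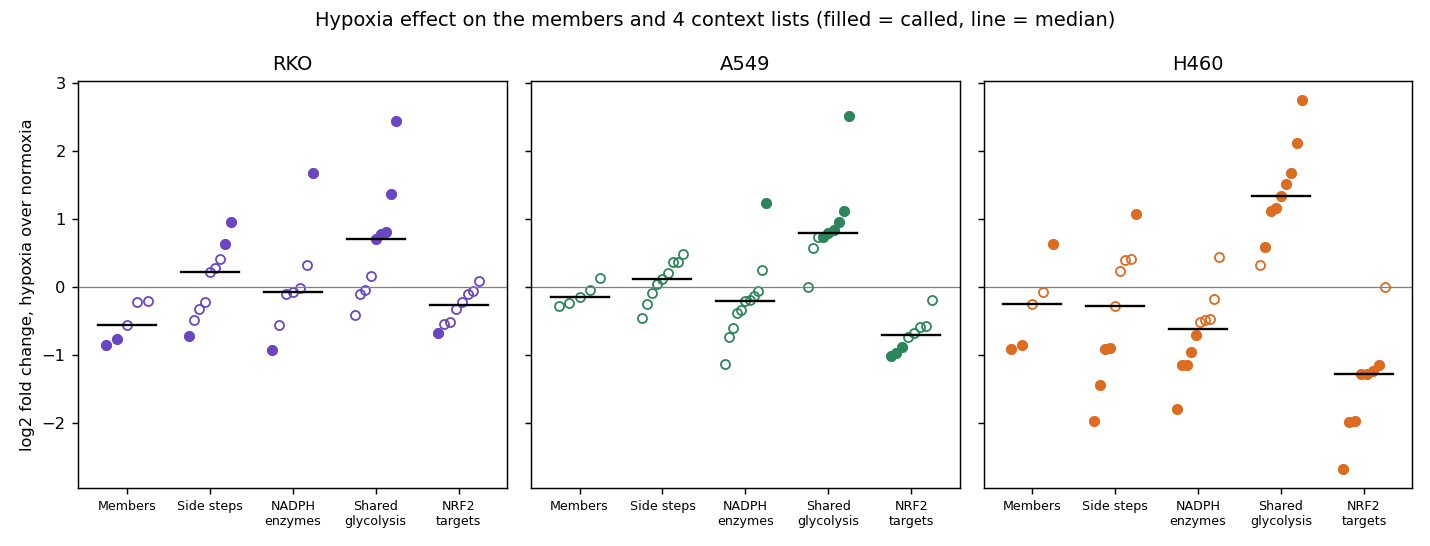
Log2 fold change in hypoxia over normoxia (y axis, edgeR estimate) of the tested members and of the tested genes of 4 lists (x axis) in RKO, A549 and H460; points are genes, filled where called, and lines are medians. The glycolytic list has medians of 0.71 to 1.34, the NRF2 target list -0.27 to -1.28 and the members -0.14 to -0.56.

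For each member, the genes whose log2 CPM followed it most closely over the 12 libraries were ranked by Pearson's r among 11660 genes with a mean of at least 5 CPM. Those most like PGD were SLC47A1 (r = 0.993), ABCC2 (0.991) and ALDH3A1 (0.990), and those most like TKT were PTGS2 (0.994), GPRIN3 (0.989) and SLFN11 (0.988). Those most like TALDO1 were MRPL23 (0.970), RNASEH1-AS1 (0.969) and PMVK (0.967). Those most like RPIA were STAG1 (0.989), SRPK1 (0.986) and TSN (0.983), and those most like RPE were EPRS (0.959), SARS (0.955) and GRPEL2 (0.955). The libraries fall into clusters by line, so these values mix the differences between lines with those between oxygen conditions.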

How the data were processed

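Poly(A)+ RNA was read as strand-specific, single-end libraries, 2 for each of 6 groups. Per the labels and the study's methods, the authors trimmed low-quality 3' ends, aligned the reads to GRCh37/hg19 with TopHat2 2.0.13 and Bowtie2 2.2.3.0, dropped alignments of low mapping quality with SAMtools, marked duplicates with Picard 1.129, and counted reads over exons with HTSeq 0.6.1 (reverse-stranded, intersection-nonempty). The authors deposited a read count for each of 25369 genes, and these counts entered the main fits unchanged. The authors also deposited RPKM values, which equal the count over gene length and summed counts (ratio of deposited to recomputed RPKM 1 throughout), so they carry no TMM scaling. Of reads that map to several places, those with a low mapping quality were dropped upstream, and any others were assigned. Other deposited columns hold gene positions and lengths, and 0 columns were left unused.

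Each line was fitted on its 4 libraries with edgeR 4.0.16 (R 4.3.3; quasi-likelihood F test, TMM factors, genes over 0.5 CPM in at least 2 libraries). A gene was called at a Benjamini-Hochberg adjusted p under 0.1, over all genes tested, and a fold change over 1.5, and interactions on the adjusted p alone. Average effects, interactions and differences between lines came from a joint fit of all 12 libraries, which share 1 estimate of the spread. Standard errors are the log2 fold change over the square root of F. The fits were tested on simulated counts in which few genes changed, as many up as down. This does not test the TMM scaling where many genes change, as in H460. With 2 replicates, log2 fold changes had a median standard error of 0.184, 0.223 and 0.114 in RKO, A549 and H460. TMM factors ran from 0.8661 to 1.142. Replicates of a group differed by more than counting error, so none was counted as a repeat of another.

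Alternatives were DESeq2 1.42.0, RLE factors, library size only, no filter, over 1 CPM in all libraries, a replicate block, the joint fit, a fold change over 2 or none, limma 3.58.1 on log2(RPKM + 0.1) or log2(RPKM + 1), and leaving out each library. The members and lists were chosen with earlier results of these data known, and the lists were written from general knowledge. All 6 members are named. Of the other lists, up to 4 called genes per list and line by fold change and any called in all 3 lines are named, and NRF2 targets also by their normoxia levels. Promoters came from RefSeq (GRCh38.p14), in which all 6 members were found by symbol.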

Additional observations from a re-analysis of the deposited data

Results flagged for a closer look

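The hypoxia effect differed between lines by the interaction test of the joint edgeR fit for 3 members. The log2 difference was -0.68 for TALDO1 (RKO minus A549), -1.14 for TKT (RKO minus H460), 0.81 for TALDO1 (A549 minus H460) and 0.67 for RPIA (A549 minus H460).

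For the other named genes the pair of lines with the largest difference that passed is given, mostly RKO minus H460. The effect was lower in H460 for AKR1B10 (2.40), C12orf5 (1.91), SRXN1 (1.5), GCLM (1.48), ABCC2 (1.41), IDH2 (1.28), DERA (1.18), TXNRD1 (1.10), IDH1 (0.98) and GSR (0.63). It was higher in H460 for CA9 (-2.30), GAPDH (-1.91), TPI1 (-1.5) and PFKL (-0.82). For MTHFD1 (1.46), PRPS1 (1.89) and GCLC (0.68) it was A549 minus H460. Line and medium cannot be told apart in those that involve H460.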

How the results depend on the processing

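No member was called in A549 under any alternative, and the TALDO1 and RPIA calls of RKO and H460 were kept under all but a fold change over 2, where the counts of members called went from 2 and 3 to 0 in both lines. Library size scaling and limma on RPKM, which both omit TMM, gave 2 calls in place of 1 for the average effect and 4 in place of 1 between RKO and H460. For RKO against A549 the count was 1, and it was 2 with RLE factors, 2 without the filter, 3 with DESeq2, 3 with the replicate block and 0 with limma. Leaving out 1 library, and assuming that the remaining one varies like the others, gave 2 to 3 calls in RKO, 2 to 3 in H460, 0 to 1 on average, 0 to 2 for RKO against A549, 1 to 3 for A549 against H460, and 3 to 4, 3 to 4 and 1 to 2 in normoxia for A549 over RKO, H460 over RKO and H460 over A549.

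Values that changed sign were small. Under library size and limma these were the average TKT effect (-0.0535 and -0.0583), the A549 to H460 differences of PGD (0.23 and 0.23) and RPE (0.20 and 0.19), and the RPE differences of RKO to A549 (0.0946 and 0.10) and RKO to H460 (0.29 and 0.29). The normoxia difference of PGD between H460 and A549 was -0.0067 by library size, -0.0077 without the filter and -0.0074 by limma. Without single libraries, the ranges were -0.11 to 0.0097 for PGD (A549 to H460), -0.17 to 0.0268 for RPE (A549 to H460), -0.15 to 0.10 for RPE (RKO to A549), -0.21 to 0.0423 for RPE (RKO to H460), -0.13 to 0.0481 for TALDO1 and -0.10 to 0.34 for TKT in A549, and -0.0507 to 0.0889 for PGD (normoxia, H460 to A549). The cause was not tested.

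Over all genes, the A549 count of 381 was 1912 with the replicate block, 1397 in the joint fit, 871 with DESeq2, 800 without the filter, 192 by library size, 109 and 46 by limma (pseudocounts 0.1 and 1) and 0 by limma without a filter, and a fold change over 2 left 1980 of 4345 in RKO and 4260 of 7304 in H460. In the lists, a fold change over 2 or none and limma moved counts by over 1.5 times. In A549 limma left 0 calls in the NRF2 and NADPH lists and 1, 0 and 0 of 6 in the glycolytic list (pseudocounts 0.1, 1 and 0.1 without a filter). The A549 NADPH count of 1 was 4 with the replicate block, 3 in the joint fit and 2 with DESeq2 or without the filter.

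Libraries with the same replicate number deviated together (r = 0.268 in RKO, 0.363 in A549 and 0.153 in H460), but with 2 pairs a line, and labels that do not say what a number stands for, they are not treated as pairs. The replicate block also called TKT between A549 and H460 (-0.51), gave 4200 in place of 2270 genes for RKO against A549, and in A549 called 7 in place of 3 NRF2 targets. It changed no call of a member within a line. The depth limits only TKTL1.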
